A study of Mus musculus with 8 samples.

Results

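The breakdown of the branched-chain amino acids leucine, valine and isoleucine, and of the propionyl-CoA that valine and isoleucine yield, was followed across 32 genes in mouse liver. The members were chosen by gene symbol for their place in the pathway and not by a threshold on their values. The choice was nevertheless made with earlier results of these data known. All 32 were present among the 22481 genes of the deposited expression table. RNA sequencing, after removal of ribosomal RNA, covered 8 liver samples, all of male mice. Of these, 4 came from db/db mice, which lack working leptin receptor signalling and become obese and diabetic, and 4 from lean mice labelled C57BL/6. For db/db mice the background strain, and for both groups the age of the animals and whether each sample is a separate animal, are not stated in the labels, so p-values measure the spread between samples. The study's title concerns fatty liver disease and the deubiquitylating enzyme RPN11, and the comparison analysed was db/db against lean.

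In the textbook pathway, a transaminase first removes the amino group of all 3 amino acids. The branched-chain keto acid dehydrogenase complex (BCKDH) then commits the resulting keto acids to breakdown, and it is switched off by a kinase and on by a phosphatase. Separate mitochondrial branches follow for each amino acid. Leucine ends as acetyl-CoA and acetoacetate, while valine and isoleucine give propionyl-CoA, which a biotin enzyme and a cobalamin enzyme turn into succinyl-CoA. Hepatocytes are known for little transaminase and much BCKDH, and raised circulating branched-chain amino acids are a known feature of obesity and insulin resistance.

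Levels are given as FPKM (fragments per kilobase, corrected for depth), which allows levels of different genes to be compared. Values by sample follow the sample numbers 1 to 4. A gene was called when its limma adjusted p on log2(FPKM + 1), over 10943 genes tested, was below 0.05, and each log2 fold change is the db/db mean less the lean mean on that scale, with its standard error (SE). Estimated fragments in protein-coding genes ranged from 12174816 to 16171657 per sample. The deposited table also holds a second measure, normalized fragments, which is not divided by transcript length, and a test on fragments (voom of limma) is given where it differs. The first principal component of all genes, with 63.4% of the variance, separated the groups, and the second, with 10.7%, set db/db 1 apart (score 29.6, against -15.0 to 12.8 in the other samples). Of 7 hepatocyte markers, Alb was listed at 0 in every sample and 3 fell, with a summed level of 10428 to 12150 FPKM in db/db and 28736 to 34632 in lean. Apoa1 carried most of this difference, at 982 ± 274 FPKM in db/db samples and 15006 ± 2440 in lean samples, and without it, an addition made after seeing the data, the sums were 9729 to 11090 and 15140 to 16309 FPKM. Cps1, Tat and Cyp2e1 were not called. A listed 0, as for Alb in these livers, may be a failed estimate and is not read as a low level. In bulk tissue, fewer cells of a type and less RNA per cell cannot be told apart. The part of this marker difference in the results was not tested.

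Across the pathway, db/db livers had higher levels of 14 of the 31 members tested and lower levels of 0, a share of 45.2% called higher. Among all genes tested, 15.5% were called higher and 10.9% lower. Since the members were chosen with earlier results of these data known, this does not compare a list set independently of the data. The 14 were Bckdhb, Mccc1, Mccc2, Hibch, Hibadh, Aldh6a1, Abat, Agxt2, Hsd17b10, Pcca, Mut, Mmadhc, Acsf3 and Echdc1, and their folds, as ratios of mean FPKM, ran from 1.30 for Hibadh to 2.18 for Abat. The median log2 fold change was 0.33 over the members and 0.04 over all genes tested. In 13 members every db/db sample lay above every lean sample, or 41.9%, against 16.9% of all genes, and in 0 members below, against 11.6% of all genes. Of the 17 members not called, 15 had a positive log2 fold change, and a p above the threshold does not show that they were equal between the groups.

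With voom on fragments, 13 members were called higher and 1 lower, against 15.0% and 14.0% of all genes, and 12 of the 13 were among the 14 called on FPKM. Echdc1 and Hibadh were called on FPKM alone, and Ech1 higher and Bcat2 lower on fragments alone. With 1 sample left out at a time, 12 to 16 members were called higher and 0 or 1 lower. The highest of these counts, 16, was without db/db 1. In that setting, fewer of all genes tested were called higher than with every sample kept. In all 19 alternatives run, 11 of the 14 calls were kept, the exceptions being Mccc1, Hibadh and Echdc1. Exons of Mccc1, Aldh6a1, Mut and Echdc1 overlap a gene on the other strand, and the strand setting used in counting is not stated, so their values are less certain. Exons of Agxt2 overlap a gene on the same strand, which strand cannot resolve. Of the 14, Mccc1, Aldh6a1, Agxt2, Pcca, Mut, Acsf3 and Echdc1 also share their deposited locus with other rows of the table.

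**Figure D1:**
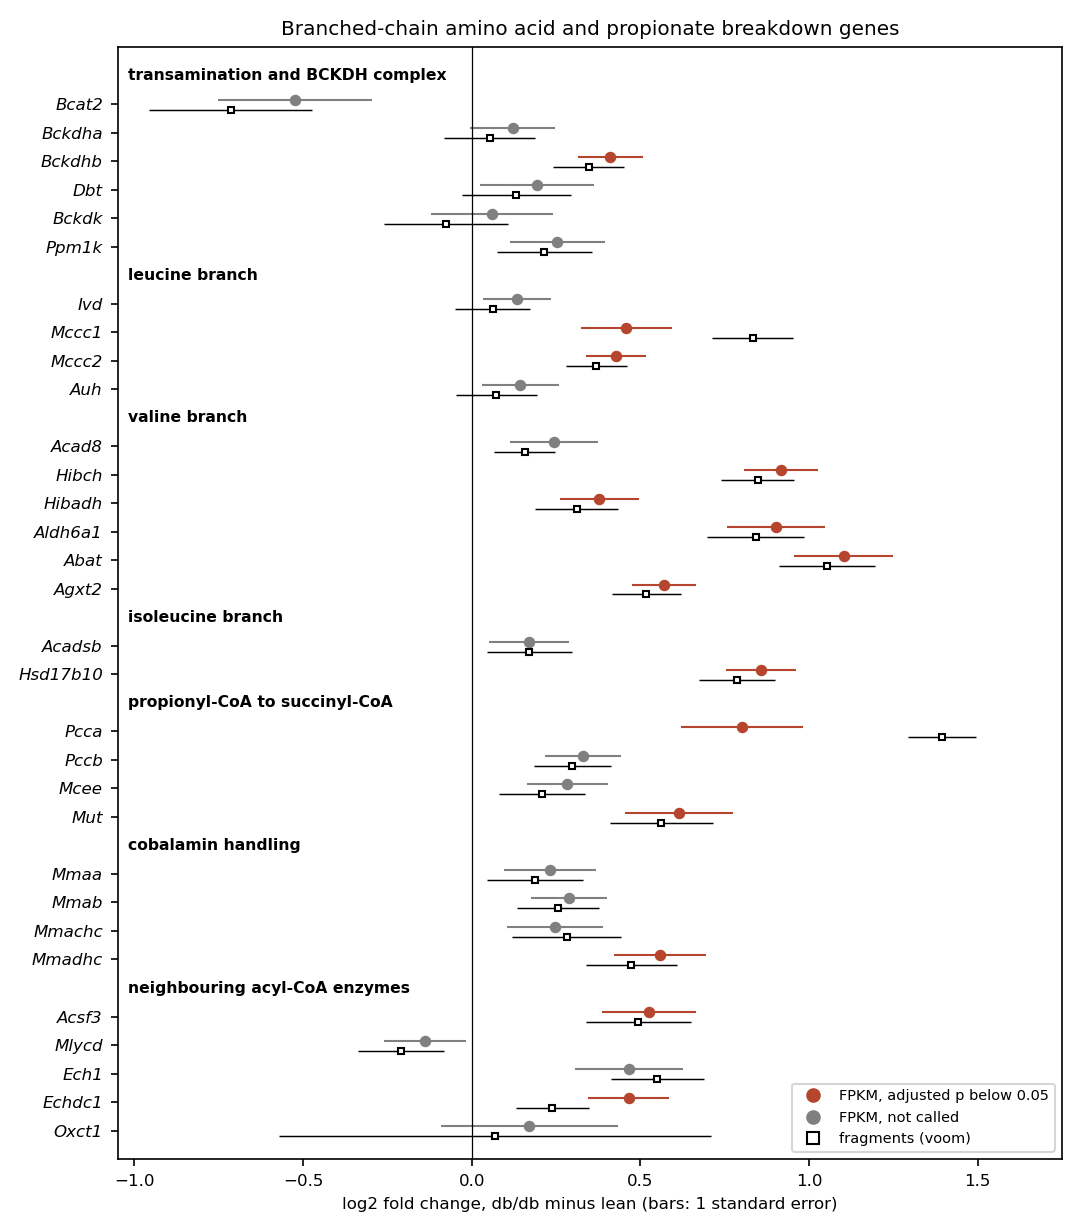
Log2 fold change (db/db minus lean, x axis) of the 31 tested members, grouped by step. Filled circles are limma on log2(FPKM + 1), red where called, open squares are voom on fragments, and bars are 1 standard error. The valine branch reaches 1.1 (Abat), and only Pcca and Mccc1 lie clearly further right on fragments than on FPKM.

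Levels differed widely along the pathway. In lean liver the most abundant members were Ech1 at 291 ± 22.1, Hsd17b10 at 209.9 ± 16.2 and Hibadh at 205 ± 24.1 FPKM (SD, n = 4 here and below). Hsd17b10 and Hibadh did not differ in level beyond their spread. Bckdha followed at 122 ± 20.4 FPKM and Aldh6a1 at 96.6 ± 19.2. The lowest tested members were Bckdk at 5.29 ± 1.86 and Oxct1 at 0.709 ± 0.775 FPKM, and the cobalamin genes Mmaa, Mmab and Mmachc lay between 6.38 and 8.43 FPKM. Ech1, Hsd17b10 and Hibadh kept ranks 1 to 3 in db/db, while Abat moved from rank 14 in lean to rank 8 and Mlycd from rank 13 to rank 20.

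At the entry of the pathway, 1 of the 2 transaminase genes had values above 0. Bcat1, which encodes the cytosolic branched-chain aminotransferase, was listed at 0 in all 8 samples and was not tested. Bcat2, the mitochondrial aminotransferase, was at 7.48, 7.38, 7.68 and 11.2 FPKM in db/db and at 15.5, 7.80, 17.7 and 10.8 FPKM in lean. Its groups overlapped, with db/db 4 above lean 2 and lean 4. The log2 fold change was -0.52 ± 0.23 SE (adjusted p = 0.117). On fragments the same gene was called lower (log2 fold change -0.71, voom adjusted p = 0.0459), as it was on FPKM without lean 2 (log2 fold change -0.73, adjusted p = 0.0249). The range of adjusted p over its 19 alternatives was 0.0249 to 0.270. Exons of Bcat2 overlap a gene on the other strand, which makes its values less certain. Its FPKM per 1000 normalized fragments ran from 39.4 to 53.7.

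Of the subunits of BCKDH itself, Dld was listed with the partner genes, where it was called higher (adjusted p = 0.00528). Among the members that encode subunits, the one called was Bckdhb. This gene (chromosome 9, 83925145 to 84124240, plus strand, mm10) encodes the beta subunit of the decarboxylase. It was at 59.9, 69.0, 71.0 and 68.0 FPKM in db/db and at 50.3, 51.2, 53.0 and 45.9 in lean, so that every db/db sample was above every lean sample. The fold was 1.34 (log2 fold change 0.41 ± 0.10 SE, adjusted p = 0.0101). Bckdha, the alpha subunit of the same decarboxylase, was at 127, 129, 148 and 126 FPKM in db/db and at 127, 109, 149 and 104 in lean. Its groups overlapped, with lean 1 and lean 3 within or above the db/db range (log2 fold change 0.12 ± 0.13 SE, adjusted p = 0.515). The ratio of Bckdhb to Bckdha in FPKM was 0.508 ± 0.0364 in db/db and 0.415 ± 0.0501 in lean, and the groups did not overlap in this ratio.

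Dbt encodes the transacylase core of the complex, which carries lipoate. Its level was 44.2, 25.8, 25.7 and 35.0 FPKM in db/db and 25.9, 31.3, 25.5 and 28.4 in lean, high in db/db 1 and db/db 4 and within the lean range in the other db/db samples (adjusted p = 0.432). Bckdk, the inhibiting kinase, was at 5.62, 5.63, 5.56 and 4.72 FPKM in db/db and at 8.01, 3.92, 4.31 and 4.90 in lean. Ppm1k, the activating phosphatase, was at 12.8, 10.9, 11.1 and 10.1 FPKM in db/db and at 9.29, 12.0, 7.58 and 8.51 in lean. Neither regulator was called (adjusted p = 0.835 for Bckdk and 0.214 for Ppm1k). The ratio of kinase to phosphatase in FPKM was 0.481 ± 0.0348 in db/db and 0.584 ± 0.220 in lean. The groups overlapped, with a lean range of 0.326 to 0.863. On estimated fragments the ratio was 0.134 ± 0.0136 in db/db and 0.172 ± 0.0616 in lean, also overlapping. It was then highest in lean 3 (0.231) and not in lean 1 (0.176). FPKM per 1000 normalized fragments of Bckdk was not constant, from 26.1 in lean 3 to 51.9 in lean 1. The direction of Bckdk is not settled, since its log2 fold change was 0.06 on FPKM and -0.08 on fragments.

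In the leucine branch, both subunits of methylcrotonyl-CoA carboxylase were called and the other 2 enzymes were not. Mccc2, the carboxyltransferase subunit (chromosome 13, 99948530 to 100015639, minus strand), was at 45.0, 43.2, 42.0 and 39.5 FPKM in db/db and at 32.3, 30.2, 32 and 30.6 in lean. The groups were well apart at a fold of 1.36 (log2 fold change 0.43 ± 0.09 SE, adjusted p = 0.00567). Mccc1, the subunit that carries biotin (chromosome 3, 35959312 to 36000678, minus strand), was at 42.4, 52.4, 57.5 and 45.6 FPKM in db/db and at 37.7, 42.7, 30.8 and 31.9 in lean. The lowest db/db sample, db/db 1, lay just below the highest lean sample, lean 2. The log2 fold change of Mccc1 was 0.46 ± 0.14 SE (adjusted p = 0.0300) on FPKM and 0.83 on fragments (voom adjusted p = 0.000492). The FPKM call was lost without db/db 2, db/db 3, lean 1, lean 3 or lean 4 (adjusted p = 0.0516 to 0.0789), and with no filter, median-ratio rescaling or a replicate block (0.0501 to 0.0613).

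Ivd, isovaleryl-CoA dehydrogenase, the first enzyme of the branch and its most abundant member, was at 68.1, 61.8, 61.4 and 72.1 FPKM in db/db and at 65.6, 56.6, 62.1 and 55.1 in lean. Auh, the methylglutaconyl-CoA hydratase, averaged 30.3 ± 3.35 FPKM in db/db samples and 27.2 ± 2.37 in lean samples. Both genes overlapped between the groups (adjusted p = 0.355 and 0.380).

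In the valine branch, 5 of 6 genes were called higher and 0 lower on FPKM, with a median log2 fold change of 0.74, the highest median of the 7 steps, and 4 of 6 were called on fragments. Abat encodes GABA transaminase, a mitochondrial aminotransferase that also acts on an amino acid formed from a valine intermediate (chromosome 16, 8513429 to 8621568, plus strand). It was at 114, 83.0, 79.0 and 81.2 FPKM in db/db and at 39.1, 50.2, 35.0 and 39.5 in lean. Every db/db sample was well above lean, and db/db 1 stood above the other db/db samples (log2 fold change 1.1 ± 0.15 SE, adjusted p = 0.000422). Leaving db/db 1 out, or any other sample, kept the call.

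Hibch encodes hydroxyisobutyryl-CoA hydrolase, which frees hydroxyisobutyrate from its CoA ester (chromosome 1, 52844929 to 52920986, plus strand). It stood at 73.4, 67.0, 65.8 and 69.96 FPKM in db/db and at 42.6, 36.2, 30.9 and 35.5 in lean. The groups lay far apart relative to their spread (log2 fold change 0.92 ± 0.11 SE, adjusted p = 0.000213). Aldh6a1, the methylmalonate semialdehyde dehydrogenase that makes propionyl-CoA from valine (chromosome 12, 84430717 to 84451004, minus strand), was at 198, 167, 169 and 181 FPKM in db/db and at 100.5, 117, 70.7 and 98.1 in lean. Its lowest db/db sample was above its highest lean sample, at a fold of 1.85 (log2 fold change 0.90 ± 0.15 SE, adjusted p = 0.00132).

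Hibadh, hydroxyisobutyrate dehydrogenase, acts between Hibch and Aldh6a1 and was the most abundant gene of the branch. Its level was 230.0, 282, 285 and 268 FPKM in db/db and 231, 219, 188 and 181 in lean. The groups touched, with db/db 1 just below lean 1 (log2 fold change 0.38 ± 0.12 SE, adjusted p = 0.0357). Its call was lost on fragments (voom adjusted p = 0.0808), with median-ratio rescaling or a replicate block, and without db/db 2, 3 or 4 or lean 3 or 4 (adjusted p = 0.0761 to 0.0950). Agxt2 encodes a mitochondrial aminotransferase of aminoisobutyrate and was listed with this branch (chromosome 15, 10358532 to 10410153, plus strand). It averaged 101 ± 4.06 FPKM in db/db samples and 68.0 ± 5.66 in lean samples, with groups apart (log2 fold change 0.57 ± 0.09 SE, adjusted p = 0.00153). Acad8, isobutyryl-CoA dehydrogenase and the first enzyme of the branch, averaged 24.4 ± 4.68 FPKM in db/db samples and 20.2 ± 0.442 in lean samples (adjusted p = 0.193). The highest Acad8 level was in db/db 1, at 30.6 FPKM.

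**Figure D2:**
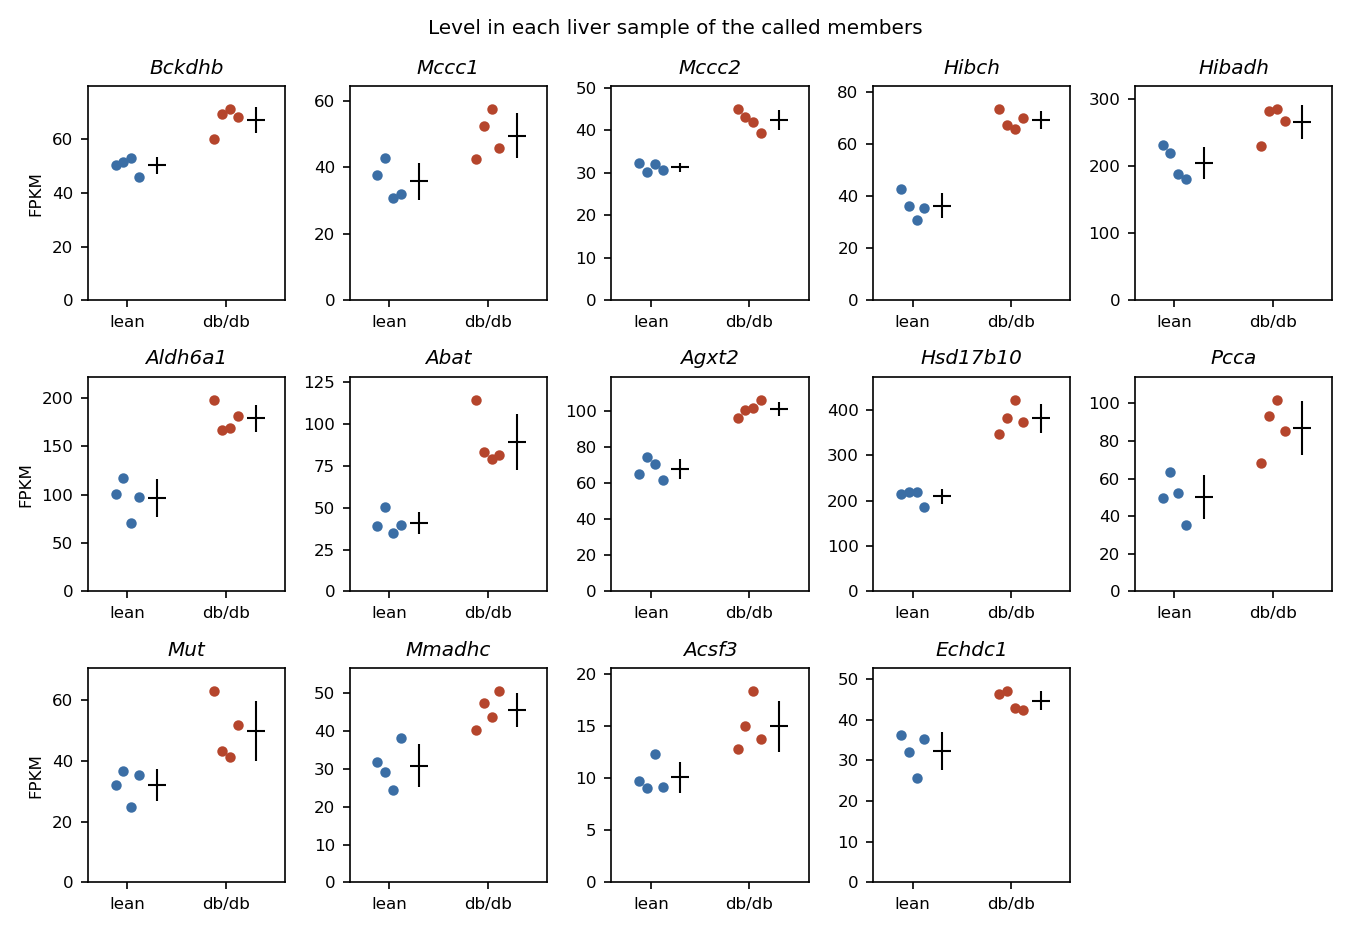
FPKM (y axis, from 0) of the 14 called members in each lean (blue) and db/db (red) sample, in the order of the sample numbers, with the group mean and SD in black. The groups do not overlap in 12 of the 14, the exceptions being Mccc1 and Hibadh.

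In the isoleucine branch, the dehydrogenase of the later step was called and the earlier one was not. Hsd17b10 encodes the dehydrogenase of methyl-hydroxybutyryl-CoA, a protein that is also part of mitochondrial RNase P (chromosome X, 152001845 to 152004442, plus strand). It was at 346, 383, 422 and 375 FPKM in db/db and at 215, 220.0, 218 and 186 in lean, a fold of 1.82 with no overlap (log2 fold change 0.86 ± 0.10 SE, adjusted p = 0.000216). Acadsb, the dehydrogenase of short branched acyl-CoAs, was at 69.2, 53.5, 49.6 and 51.2 FPKM in db/db and at 51.2, 51.6, 45.3 and 48.7 in lean. Only db/db 1 and db/db 2 lay above all lean samples (adjusted p = 0.326).

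Each amino acid branch begins with an acyl-CoA dehydrogenase, Ivd for leucine, Acad8 for valine and Acadsb for isoleucine, and none of these was called in any of the 19 alternatives. Their log2 fold changes were positive, at 0.14, 0.24 and 0.17. This was not particular to them, since 13 of the 17 members not called were never called in an alternative.

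Of the enzymes that carry propionyl-CoA to succinyl-CoA, Pcca and Mut were called. Pcca encodes the alpha subunit of propionyl-CoA carboxylase, which carries biotin (chromosome 14, 122534324 to 122891100, plus strand). Its level was 68.1, 93.3, 102 and 85.1 FPKM in db/db and 49.6, 63.5, 52.1 and 35.1 in lean, with all db/db samples above lean (log2 fold change 0.80 ± 0.18 SE, adjusted p = 0.00821). Pccb, the beta subunit of the same enzyme, was at 92.5, 69.6, 69.6 and 79.9 FPKM in db/db and at 63.5, 58.2, 58.2 and 65.8 in lean. Its groups did not overlap either, but it was not called (log2 fold change 0.33 ± 0.11 SE, adjusted p = 0.0548). With limma on normalized fragments it was (log2 fold change 0.36, adjusted p = 0.0367, the lowest of 19 alternatives that reached 0.117).

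The size of the Pcca difference depended on the measure. In normalized fragments, Pcca was at 2827, 2275, 2298 and 2487 in db/db and at 962, 913, 838 and 873 in lean, a fold of 2.76 against 1.74 in FPKM (voom log2 fold change 1.39, adjusted p = 5.44e-06). The sample with the lowest FPKM in db/db, db/db 1, had the most fragments. FPKM per 1000 normalized fragments of Pcca was 24.1, 41.0, 44.3 and 34.2 in db/db and 51.5, 69.6, 62.2 and 40.2 in lean. This ratio of the measures was thus not constant, and the cause was not tested. For Mccc1 the same quantity ran from 27.1 to 46.0 in db/db and from 41.3 to 51.5 in lean. In 20 of the 31 members its highest value was less than 1.1 times its lowest. The annotation lists 13 Pcca transcripts of 287 to 2592 bases and 8 Mccc1 transcripts of 468 to 6751 bases, and which of them the fragments came from was not tested. On fragments, the ratio of Pcca to Pccb was 0.863 ± 0.0460 in db/db and 0.404 ± 0.0315 in lean with groups apart, while on FPKM it was 1.15 ± 0.322 and 0.825 ± 0.233 with groups overlapping.

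**Figure D3:**
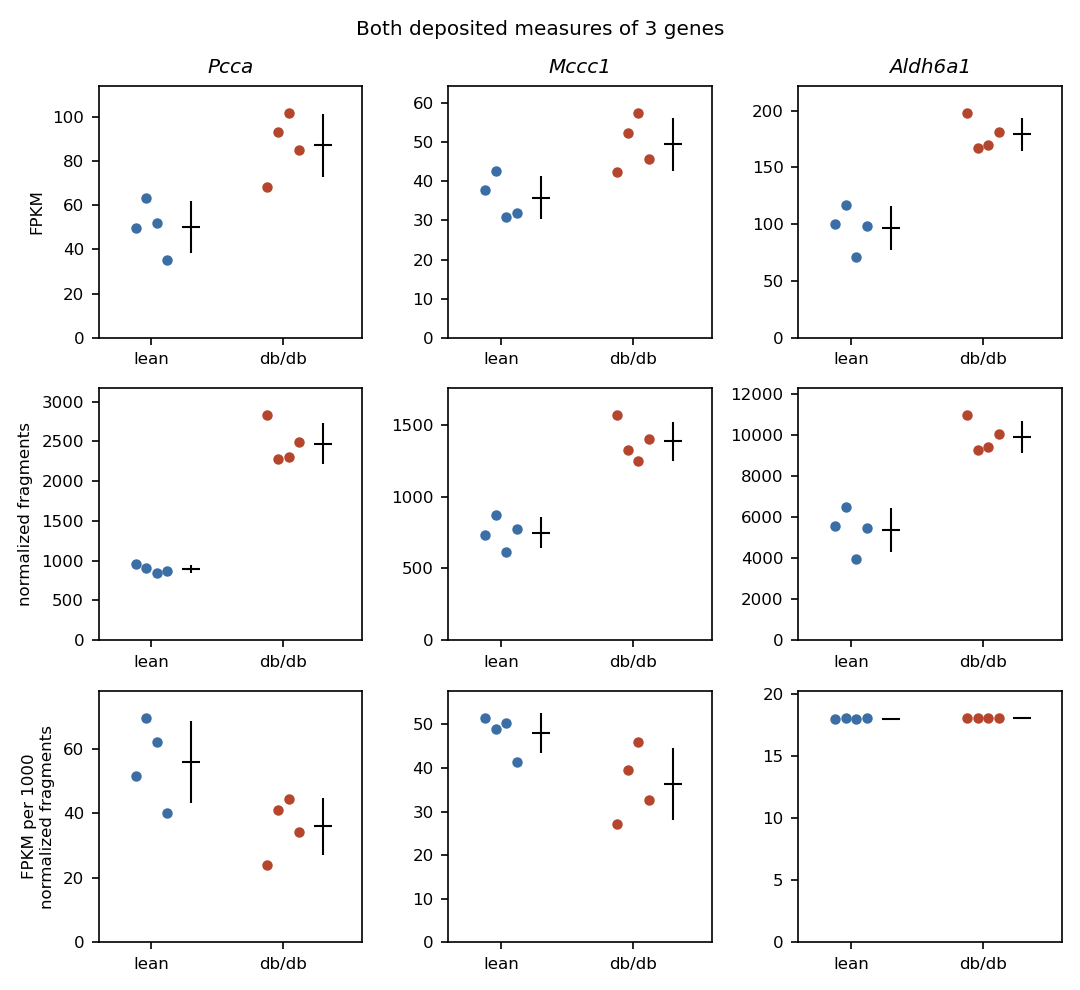
FPKM, normalized fragments and FPKM per 1000 normalized fragments (rows, y axes from 0) of Pcca, Mccc1 and Aldh6a1 (columns) in each lean (blue) and db/db (red) sample, with mean and SD in black. Aldh6a1 keeps nearly 1 ratio of the measures in all 8 samples, whereas in Pcca the ratio ranges from 24.1 to 69.6.

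Mut, methylmalonyl-CoA mutase, makes succinyl-CoA with adenosylcobalamin as cofactor (chromosome 17, 40934685 to 40961988, plus strand). It was at 63.1, 43.4, 41.5 and 52.0 FPKM in db/db and at 32, 36.6, 24.8 and 35.5 in lean. The groups did not overlap, at a fold of 1.55 (log2 fold change 0.61 ± 0.16 SE, adjusted p = 0.0172). Mcee, the epimerase that prepares its substrate and the most abundant gene of this step, was at 84.8, 107, 102 and 101 FPKM in db/db and at 93.0, 78.0, 84.4 and 68.7 in lean. Here db/db 1 lay below lean 1 (adjusted p = 0.106).

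Among the 4 genes that process cobalamin inside the cell, Mmadhc was called. Mmadhc directs cobalamin towards the mitochondrial or the cytosolic enzyme (chromosome 2, 50279881 to 50296801, minus strand). It was also the most abundant, at 40.3, 47.4, 43.7 and 50.5 FPKM in db/db and 31.8, 29.2, 24.4 and 38.0 in lean, without overlap (log2 fold change 0.56 ± 0.14 SE, adjusted p = 0.0129). Mmaa, a chaperone of the mutase, Mmab, the adenosyltransferase, and Mmachc, the cytosolic processing enzyme, had log2 fold changes of 0.23, 0.29 and 0.25 (adjusted p = 0.236, 0.0840 and 0.228). Mmab was called without db/db 1 (adjusted p = 0.0460) and with library weights (0.0272), against up to 0.191 in its other alternatives.

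The remaining 5 members handle acyl-CoAs next to the pathway. Acsf3, a mitochondrial ligase of malonate and methylmalonate (chromosome 8, 122775486 to 122817880, plus strand), was at 12.8, 15.0, 18.3 and 13.7 FPKM in db/db and at 9.72, 9.09, 12.3 and 9.14 in lean. Its groups were apart (log2 fold change 0.53 ± 0.14 SE, adjusted p = 0.0182). Echdc1, which removes ethylmalonyl-CoA and methylmalonyl-CoA formed by side reactions (chromosome 10, 29313166 to 29347469, plus strand), was at 46.4, 47.1, 42.9 and 42.4 FPKM in db/db and at 36.2, 32.1, 25.8 and 35.2 in lean (log2 fold change 0.46 ± 0.12 SE, adjusted p = 0.0156). On fragments its log2 fold change was 0.24 and the call was lost (voom adjusted p = 0.123). Its normalized fragments were 1738, 1893, 1854 and 1670 in db/db and 1678, 1430, 1273 and 1436 in lean, where lean 1 exceeded db/db 4.

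Ech1, a dienoyl-CoA isomerase of fatty acid oxidation, was at 283, 433, 491 and 433 FPKM in db/db and at 321, 281, 293 and 269 in lean. One db/db sample, db/db 1, lay within the lean range and the other db/db samples were above it (log2 fold change 0.47, adjusted p = 0.0536). Without db/db 1 it was called (log2 fold change 0.64, adjusted p = 0.00157), as it was on fragments (log2 fold change 0.55, voom adjusted p = 0.0121), with limma on normalized fragments (adjusted p = 0.00465) and with library weights (0.0118). Its highest adjusted p among 19 alternatives was 0.131. Mlycd, malonyl-CoA decarboxylase, averaged 38.7 ± 5.08 FPKM in db/db samples and 42.6 ± 3.88 in lean samples (adjusted p = 0.430).

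Oxct1 encodes the transferase by which tissues other than liver use ketone bodies. It was at 1.28, 0.453, 0.867 and 0.701 FPKM in db/db and at 0.101, 0.434, 1.85 and 0.456 in lean, with no separation of the groups (adjusted p = 0.666), on as few as 3 estimated fragments in lean 1. Markers of other cell types were summed beside these levels. The 5 skeletal muscle markers, of which Ckm, Tnnt3 and Mb were listed at 0 in every sample, summed to at most 0.0959 FPKM. The 5 adipocyte markers, with Lep listed at 0 in every sample, summed to 2.53 to 8.65 FPKM in db/db and 1.47 to 4.7 in lean. Of the 2 tested, Cidea was called higher (mean 4.85 FPKM in db/db and 0.0303 in lean) and Adrb3 lower (0.142 and 2.74). Adipoq averaged 0.0946 FPKM in db/db and 0.215 in lean, and Plin1 0 and 0.0386. Kupffer cell markers summed to 68.2 to 90.3 FPKM in db/db and 89.5 to 145 in lean, with 2 of 5 called lower. Sinusoidal endothelial markers summed to 42.6 to 47.5 against 52.5 to 63.5 FPKM, with 1 of 5 called lower. That was Clec4g, at 30.3 FPKM in db/db samples and 43.4 in lean samples. Kdr had a negative log2 fold change (-0.29), and Stab2, Lyve1 and Pecam1 had positive ones (0.07, 0.60 and 0.09), none of them called. Stellate cell and fibroblast markers summed to 88 to 115 against 87.4 to 106 FPKM with 0 of 4 tested called. Cholangiocyte, lymphocyte and pancreas markers each summed to at most 4.19 FPKM in any sample, and of these lists 2 cholangiocyte markers were tested, with 0 called. The part of these differences in the levels of Bcat2 and Oxct1 was not tested.

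Within a group, the sample order differed from member to member. Sample db/db 1 was at an end of the db/db range in 26 of 31 members, as the highest in 12 and the lowest in 14. It was highest in Dbt, Mut, Pccb, Abat, Aldh6a1, Hibch, Acad8 and Acadsb, among others, and lowest in Pcca, Mccc1, Bckdhb, Hibadh, Hsd17b10, Agxt2 and Ech1, among others. Sample db/db 3 was highest in 10 members and lowest in 8. In lean, lean 3 was lowest in 12 members and lean 2 highest in 11. Over the members tested, the median coefficient of variation was 10.1% within db/db and 13.2% within lean.

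The sequence just before the genes was examined for the members that differed most. Promoter windows of 250 bases before to 50 bases after a start site (RefSeq, GRCm38.p6) were at hand for 28 members, of which 11 were called. The windows of Hibch (chr1:52844788-52845087, plus strand), Aldh6a1 (chr12:84450975-84451274, minus strand), Hsd17b10 (chrX:152001646-152001945, plus strand) and Pcca (chr14:122534078-122534377, plus strand) are shown because these had the largest log2 fold changes among called members with a window. Capitals mark a CCAAT box, a GC box or the short nuclear receptor motif on either strand.
Hibch: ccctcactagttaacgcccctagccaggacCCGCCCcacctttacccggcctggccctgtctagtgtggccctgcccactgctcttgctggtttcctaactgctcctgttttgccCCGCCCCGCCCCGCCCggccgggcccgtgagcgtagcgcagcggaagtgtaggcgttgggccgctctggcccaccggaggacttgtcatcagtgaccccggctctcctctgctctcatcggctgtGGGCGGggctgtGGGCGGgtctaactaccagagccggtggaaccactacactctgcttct
Aldh6a1: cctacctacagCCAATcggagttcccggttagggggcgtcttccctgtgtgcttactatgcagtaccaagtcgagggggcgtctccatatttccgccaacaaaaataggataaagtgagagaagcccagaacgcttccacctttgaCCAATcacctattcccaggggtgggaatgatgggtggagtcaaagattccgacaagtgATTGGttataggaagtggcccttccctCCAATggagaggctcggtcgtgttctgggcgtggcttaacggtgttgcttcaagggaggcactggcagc
Hsd17b10: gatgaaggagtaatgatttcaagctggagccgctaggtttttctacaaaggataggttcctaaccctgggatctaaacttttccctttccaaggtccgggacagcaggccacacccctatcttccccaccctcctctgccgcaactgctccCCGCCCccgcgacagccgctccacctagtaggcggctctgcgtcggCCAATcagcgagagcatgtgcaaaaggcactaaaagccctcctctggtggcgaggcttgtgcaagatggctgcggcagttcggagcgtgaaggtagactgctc
Pcca: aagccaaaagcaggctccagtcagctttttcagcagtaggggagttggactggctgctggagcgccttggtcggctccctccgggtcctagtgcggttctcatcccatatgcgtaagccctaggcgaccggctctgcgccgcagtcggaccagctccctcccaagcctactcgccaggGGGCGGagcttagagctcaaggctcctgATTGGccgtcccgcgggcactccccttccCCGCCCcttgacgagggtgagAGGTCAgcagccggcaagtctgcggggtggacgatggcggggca
The CCAAT box, searched as CCAAT or ATTGG, was in 17 of 28 member windows and 9 of the 11 of called members, against 37.4% of 32851 windows of all genes. It was in those of Aldh6a1, Hsd17b10 and Pcca and not in that of Hibch. The GC box, GGGCGG or CCGCCC, was in 16 of 28 and 7 of 11, against 35.7% of all windows, and was repeated in Hibch. The short nuclear receptor motif, AGGTCA or TGACCT was in 5 of 28 windows and 4 of 11 (Bckdhb, Hibadh, Agxt2 and Pcca), against 16.3%. The E-box CACGTG was in 1 of 28, that of Mccc2, against 7.15%, and the TATA box, TATAAA or TTTATA, in 3 of 28, against 13.6%. The longer form TCAAGGTCA or TGACCTTGA, which contains AGGTCA, was in 0 of 28, against 0.423%. The GC content of the member windows had a median of 54.8%, against 52.7% for all windows. For each member only the window nearest the annotated gene start was taken. The 32851 windows cover 27025 genes, some with several starts, and were not limited to genes expressed in liver. The 2 sets are therefore not alike, and these matches describe letters only.

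Genes that work beside the pathway were called in 1 direction among those tested on FPKM. From a list of 27 partner genes, 24 were tested, and 8 were called higher, 0 lower, which is 33.3% against the 15.5% and 10.9% of all genes. Their median log2 fold change was 0.21. The partner list too was drawn up with earlier results of these data known, and a gene was taken off it. Enzymes shared with other pathways made up 4 of the 8. Dld, the dehydrogenase subunit that BCKDH shares with pyruvate dehydrogenase, rose to 81.7 ± 9.92 FPKM in db/db from 54.6 ± 5.66 (adjusted p = 0.00528). Echs1, the short-chain enoyl-CoA hydratase of the valine and isoleucine branches, rose to 191 ± 21.4 FPKM in db/db from 129 ± 2.63 (adjusted p = 0.00250).

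Succinyl-CoA, the end product of the propionate route, is used by succinyl-CoA ligase. Suclg2, its GTP-specific subunit, was at 165, 196, 199 and 180.1 FPKM in db/db and at 86.1, 96.9, 80.3 and 85.5 in lean. This was the smallest adjusted p among the partner genes (fold 2.12, log2 fold change 1.08 ± 0.10 SE, adjusted p = 4.20e-05). Suclg1, the common subunit, was called at a fold of 1.25 (adjusted p = 0.0237), a call lost on fragments (voom adjusted p = 0.0657), with median-ratio rescaling, with a replicate block and without db/db 2, 3 or 4 or lean 4 (adjusted p = 0.0516 to 0.0694).

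Of the cofactor genes tested, 2 of 5 for lipoate and biotin attachment were called higher. For cobalamin uptake and cytosolic use it was 1 of 5. In both lists 0 were called lower, and 3 of 5 had a positive log2 fold change. Lias makes the lipoate that Dbt carries and rose to 23.5 ± 4.73 FPKM in db/db from 14.5 ± 1.40 (adjusted p = 0.00766). Hlcs attaches biotin to Pcca and Mccc1. It was at 2.25, 1.92, 1.82 and 1.53 FPKM in db/db and at 0.963, 1.07, 1.16 and 0.895 in lean, all apart (log2 fold change 0.51, adjusted p = 0.00982). On fragments with voom its log2 fold change was 0.82. Its ratio of means was nearly the same in both measures, 1.84 in FPKM and 1.855 in normalized fragments. At such low FPKM, the 1 added before the log lowers the log2 fold change. Tcn2, the transport protein that delivers cobalamin to cells, was at 53.4, 58.6, 66.7 and 57.1 FPKM in db/db and at 33.8, 31.0, 31.8 and 27.7 in lean (fold 1.9, adjusted p = 0.000178). Etfdh, which passes electrons from acyl-CoA dehydrogenases to the respiratory chain, rose to 165 ± 16.6 FPKM in db/db from 80.4 ± 12.5 (fold 2.05, adjusted p = 0.000312). Etfb, a subunit of the carrier that feeds Etfdh and the partner gene with the highest mean, averaged 456 ± 56.0 FPKM in db/db samples and 525 ± 76.0 in lean samples (adjusted p = 0.300). Of the 4 tested genes of amino acid transport, 0 were called on FPKM or on fragments. Slc43a1, a transporter of large neutral amino acids, was called lower without lean 1 (log2 fold change -0.62, adjusted p = 0.0416). Slc7a5, the light chain of another such transporter, was under the filter at 0.165 ± 0.101 FPKM in db/db samples and 0.586 ± 0.190 in lean samples, without overlap. It was called lower when no filter was used (log2 fold change -0.44, adjusted p = 0.0170). Both were named after their values were seen.

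**Figure D4:**
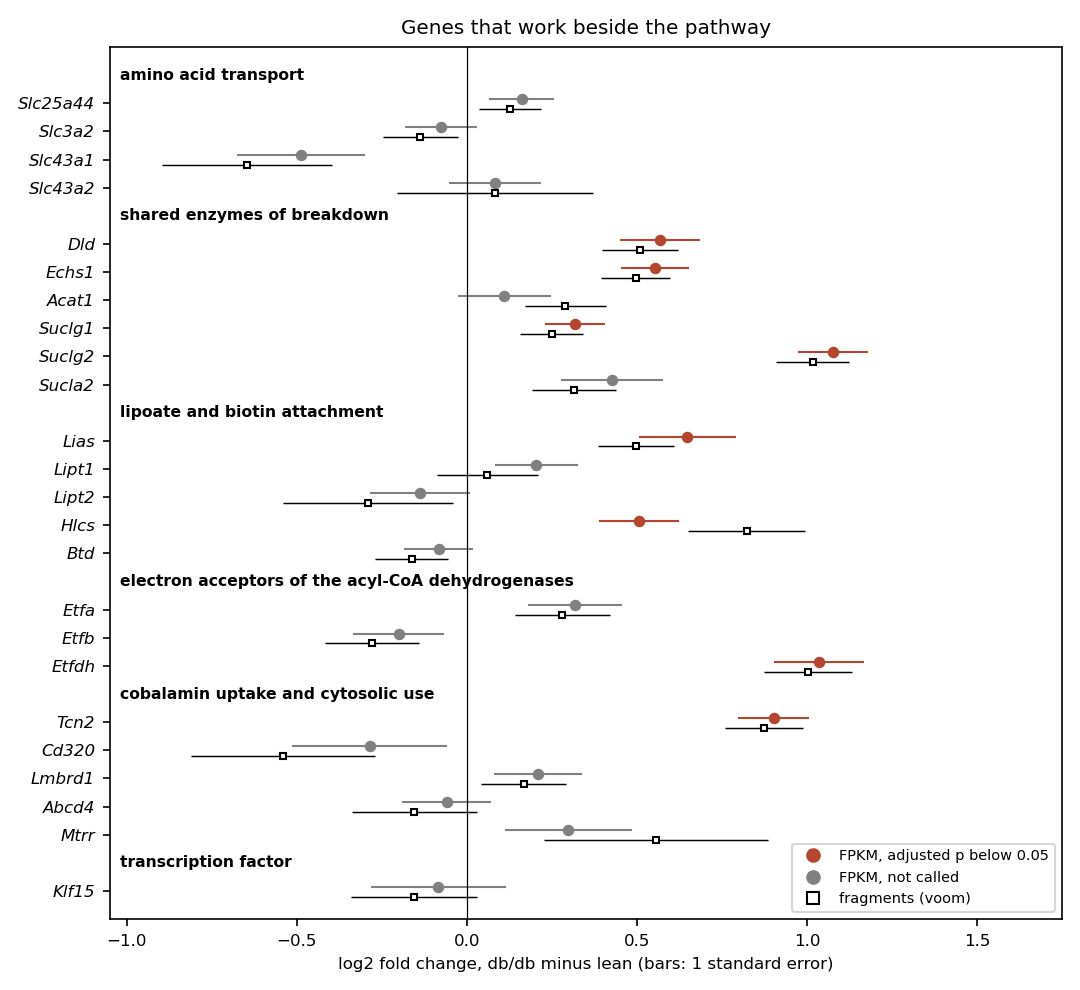
Log2 fold change (db/db minus lean, x axis) of the 24 tested partner genes by role. Circles are limma on log2(FPKM + 1), red where called, open squares are voom on fragments, and bars are 1 standard error. Suclg2, Etfdh and Tcn2 lie furthest right, and the 4 transport genes lie between -0.49 and 0.16 on FPKM.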

How the data were processed

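Liver RNA depleted of ribosomal RNA was made into stranded libraries with a TruSeq kit, per the labels' protocols. The submitters' processing notes name cutadapt 1.9.3, HISAT2 2.0.4, Cufflinks and Cuffdiff, and the build mm10. The deposited table gives FPKM per gene and sample, and a second column set that its header calls counts. These deposited values hold a normalized fragment signal, not raw counts, since the values are multiples of a step of 0.850 to 1.14 that differs between samples. Dividing by the step gave estimated fragments, with 91.3 to 92.0% of values whole within 0.05, which was too few for a count test.

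Rows with 1 symbol were summed. Genes with at least 0.5 FPKM in at least 4 samples were tested on log2(FPKM + 1) with limma 3.58.1 (R 4.3.3, trended variance, Benjamini-Hochberg over all genes tested), and on fragments with voom as an alternative. Scripts were tested on simulated data. Sample groups come from the labels. The alternatives changed the pseudocount, filter, scaling, measure, weights, replicate block and each sample in turn. Named genes were all 32 members, and of the partner list those called and the one with the highest mean. Slc43a1, Slc7a5, Abcd4 and Klf15 were added after their values were seen. Per-sample values were to be given, by step, for the called member with the smallest adjusted p, the most abundant member, members called by 1 measure alone and enzyme pairs, and others were added after their values were seen. A further gene was taken off the partner list and is not reported here. Members, lists and tests were chosen with earlier results of these data known. Gene positions are from GENCODE M21. Fragments are not independent molecules, so depth sets counting error only.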

Additional observations from a re-analysis of the deposited data

Results flagged for a closer look

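Groups of 4 samples were checked for the members and for 9 of the 27 partner genes, 80 groups in all. Of these, 7 held a sample far from the other samples of its group, where chance gives about 1 in 20. The groups come from the same samples and are not independent. Bcat2 was at 11.2 FPKM in db/db 4, while db/db 1 to 3 lay at 7.38 to 7.68. Bckdha was at 148 FPKM in db/db 3, against 125.5 to 128.8, and Bckdk, the kinase of the same complex, at 4.72 FPKM in db/db 4, against 5.56 to 5.63. Abat was at 114 FPKM in db/db 1, against 79.0 to 83.0, and Echs1 at 223 FPKM in db/db 4, against 180.2 to 181.2. In lean 4, Auh was at 23.7 FPKM, against 28.1 to 28.8 in the other lean samples, and Hsd17b10 at 186 FPKM, against 215 to 220.0.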

How the results depend on the processing

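Over the 19 alternatives, the number of genes called ran from 2271 to 3173, against 2892, the number of members called from 12 to 16, against 14, and the number of partner genes called from 7 to 10, against 8. Leaving out 1 sample gave 12 to 16 members. The sign of the log2 fold change of Bckdk turned on fragments with voom (-0.076), and leaving out 1 sample moved it between -0.043 (without lean 2; -0.0062 without lean 3) and 0.25. Leaving out 1 sample also turned it for Oxct1 (-0.0083 to 0.45, negative without lean 1), for Abcd4 (-0.14 to 0.0067, positive without lean 1) and for Klf15 (-0.28 to 0.084, positive without db/db 3). None of these was called. Among called genes, the log2 fold change moved by over 1.5 times on fragments with voom for Pcca (1.39), Mccc1 (0.83), Hlcs (0.82) and Echdc1 (0.24). FPKM per normalized fragment in db/db was 0.643, 0.756 and 1.13 times that in lean for Pcca, Mccc1 and Echdc1, and the cause was not tested. For Hlcs it was 0.992 times, and the ratio of means was 1.84 in FPKM and 1.855 in normalized fragments. At the low FPKM of Hlcs, the pseudocount of 1 lowers the log2 fold change. With a replicate block, 2514 genes, 12 members and 8 partner genes were called. The labels give no pairing, and the deviations of same-numbered samples correlated at -0.221, 0.0293, 0.110 and -0.00925. Those of differently numbered samples ran from -0.234 to 0.295, so these values cannot decide whether samples were paired. Depth limits Oxct1, which rests on 3 to 26.3 estimated fragments per sample.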
